A study of Mus musculus with 9 samples.

Results

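Wnt signalling sets the gene programme of hepatocytes around the central vein, and 9 genes of that programme and its feedback circuit were examined here: Glul, Axin2, Lgr5, Rnf43, Znrf3, Tbx3, Slc1a2, Lect2 and Ctnnb1. They were taken by symbol, 9 of 27179 genes in the deposited table, and each was found once. Bulk RNA-seq of poly(A) RNA had been done on the liver m-lobe of wild-type C57BL/6J mice injected at 17 months of age and killed 3 weeks later. All animals received an AAV8 vector with saCas9 driven by TBG, a hepatocyte promoter, and a U6-driven guide RNA. The guide was directed at Ccnd1 in 5 mice (sgCcnd1, libraries E to I) and at the Rosa26 locus in 4 control mice (sgRosa26, libraries A to D), so the controls carry the vector and the nuclease as well. The letters follow the order of the table's columns, whose names give a guide target and a number that no sample label holds, so no replicate. The labels do not say whether the livers came from separate litters, and sex and batch are not labelled, so p-values measure the spread between these 9 livers.

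In the canonical pathway, endothelial cells of the central vein release Wnt ligands and R-spondins, which act on Frizzled and LRP receptors of the neighbouring hepatocytes. β-catenin then escapes its destruction complex and, with TCF/LEF factors, turns on target genes. Among these targets are enzymes and transporters of the pericentral zone, such as glutamine synthetase, and inhibitors that feed back on the pathway, such as Axin2, Rnf43 and Znrf3. Ccnd1, which encodes the cell cycle regulator cyclin D1, is also known as a Wnt target, and the question asked of these genes was whether they differ with loss of Ccnd1 and vary with it within each group.

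Ccnd1 itself checks the labels. It had 684, 800, 625 and 867 normalized counts (reads divided by 1 size factor per library) in control livers A to D and 428, 347, 370, 339 and 325 in livers E to I of sgCcnd1, so the groups did not overlap. Its log2 difference, sgCcnd1 minus sgRosa26, was -1.03 ± 0.11 (SE; limma adjusted p = 0.0116; exact two-sided permutation p = 0.00794, the smallest that 4 against 5 allows). The adjusted p was 0.0852 without library B, 0.0559 without D, 0.0589 without F, 0.0611 without H and 0.0624 without I. Depth was 10840595 to 20176201 reads per library. Library H lacked Y-linked reads that the other 8 libraries had (Ddx3y at 2.00 against 810 to 1154 normalized counts), and the members, Ccnd1 and the named genes of the pathway and zonation lists were also tested without it. Because whole tissue was sequenced, fewer pericentral hepatocytes and less RNA per pericentral hepatocyte cannot be told apart, and the data hold no position within the lobule. All 7 hepatocyte markers found in the table passed the filter on low values, among them Hnf4a at 8870 ± 901 normalized counts (SD, n = 4) in sgRosa26.

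The members' promoters were searched for the motif of the pathway's DNA-binding factors, since these genes are described as its targets. Windows from RefSeq (GRCm38.p6), 250 bases before to 50 after a transcript start, were given for 6 of the 9 members, 8 windows in all. Lgr5, Znrf3 and Tbx3 had none. The core of the TCF/LEF motif was searched as CTTTGA on both strands, which reads TCAAAG on the other strand, and the longer form CTTTGAT contains it. CTTTGA was found in 2 of the 8 windows, those of Lect2 and Slc1a2, and CTTTGAT in the same 2. Of all 32851 windows of 300 bases, 5257 held CTTTGA (16.003%) and 1225 held CTTTGAT (3.73%). A match is a description of letters and not a binding site, and no match says only that these letters are not in the window.

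The 250 bases before the start are shown for both members with a match and for Glul and Rnf43, the leading pericentral enzyme and a member with a lower mean in sgCcnd1, with the motif in capitals. The Lect2 stretch is chr13:56548539-56548788 on the minus strand, before a start inside the annotated gene, with its match, TCAAAG, 31 bases before the start. The Slc1a2 stretch is chr2:102706188-102706437 on the plus strand, likewise before a start inside the gene, with TCAAAG 206 bases and CTTTGA 77 bases before it. The Glul stretch is chr1:153899679-153899928 and the Rnf43 stretch chr11:87662837-87663086, both on the plus strand.
Lect2: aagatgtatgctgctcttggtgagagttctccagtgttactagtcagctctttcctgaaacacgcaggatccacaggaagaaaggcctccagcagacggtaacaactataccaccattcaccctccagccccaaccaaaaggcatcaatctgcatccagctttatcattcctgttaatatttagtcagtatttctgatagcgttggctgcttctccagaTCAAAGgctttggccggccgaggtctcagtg
Slc1a2: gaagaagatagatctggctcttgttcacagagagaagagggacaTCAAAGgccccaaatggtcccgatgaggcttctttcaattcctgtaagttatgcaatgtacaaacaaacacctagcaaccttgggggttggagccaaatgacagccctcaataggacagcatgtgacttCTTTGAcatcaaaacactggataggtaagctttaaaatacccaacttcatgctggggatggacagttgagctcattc
Glul: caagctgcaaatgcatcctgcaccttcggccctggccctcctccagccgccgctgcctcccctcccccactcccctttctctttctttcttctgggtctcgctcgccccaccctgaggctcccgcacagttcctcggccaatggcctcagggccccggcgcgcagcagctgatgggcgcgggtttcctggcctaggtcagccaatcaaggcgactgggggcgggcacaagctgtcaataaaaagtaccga
Rnf43: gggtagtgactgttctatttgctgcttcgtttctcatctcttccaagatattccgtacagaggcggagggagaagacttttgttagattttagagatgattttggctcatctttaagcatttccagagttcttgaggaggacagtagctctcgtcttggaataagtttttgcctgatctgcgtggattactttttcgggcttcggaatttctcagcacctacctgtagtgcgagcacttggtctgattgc

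The 9 members spanned a wide range of levels. Per kilobase of annotated exon (GENCODE M21), the level in sgRosa26 was 3187 ± 472 normalized counts for Glul (SD, n = 4), 1213 ± 343 for Lect2 and 577 ± 56.4 for Ctnnb1. These 3 did not overlap among the control livers. Slc1a2 followed at 130 ± 15.5, Tbx3 at 87.8 ± 3.75 and Rnf43 at 69.4 ± 11.2 normalized counts per kilobase, and the ranges of Tbx3 (82.4 to 90.5) and Rnf43 (63.5 to 86.2) overlapped. Znrf3 at 27.7 ± 2.24 and Axin2 at 25.7 ± 6.33 could not be ordered beyond their spread, and Lgr5 was lowest at 11.6 ± 0.827. The order of means was the same in sgCcnd1, from Glul at 3202 ± 595 (SD, n = 5) to Lgr5 at 8.32 ± 2.99 normalized counts per kilobase.

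**Figure D1:**
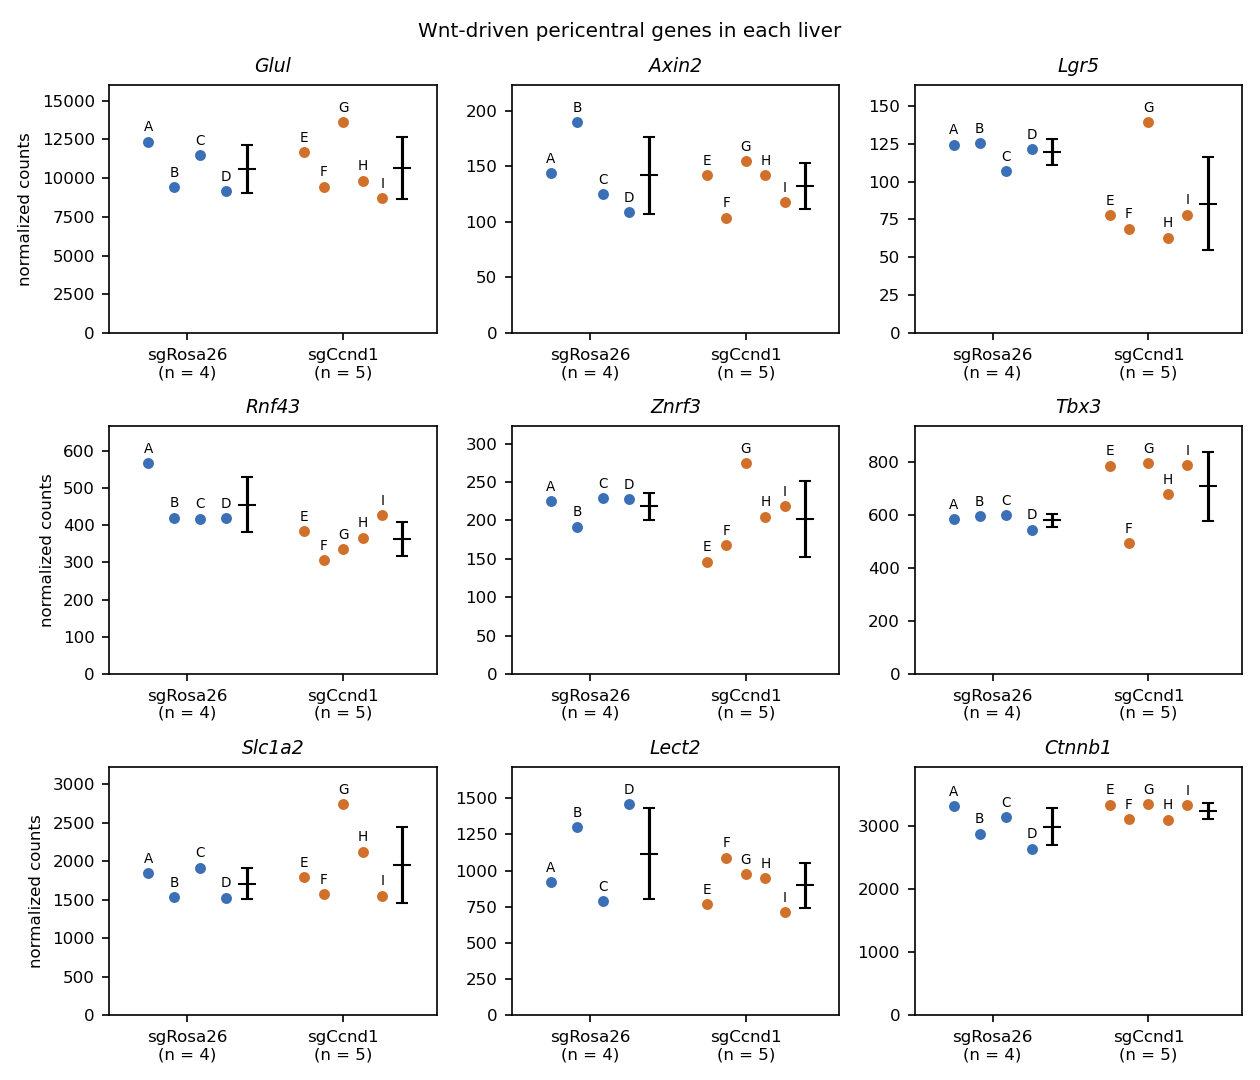
Normalized counts of the 9 members (linear axes from 0) in each library, lettered A to I, by guide target; black bars give the mean and SD beside each group. Lgr5 lies at 63.0 to 78.1 in libraries E, F, H and I and at 139 in library G, while the controls lie between 107 and 125.

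No member passed the test between groups. In limma, 0 of the 9 had an adjusted p under 0.05, where 1 of 12993 genes tested did (0.0077%, Ccnd1). In edgeR 0 of 9 passed, also with 0.0077% of all genes, and in DESeq2 0 of 9 with 0.816%. At an unadjusted limma p under 0.05 there were 2 members, Lgr5 and Rnf43, both lower in sgCcnd1, beside 11% of all genes in either direction and 5.74% in the lower one. The lower members numbered 1 without library A, 3 without library C and 1 without library F, where 1 other member, Tbx3, was higher. All 9 members passed the filter on low values. Their median log2 difference was -0.09, beside 0.01 over all genes tested, with 6 of 9 estimates below 0 where 47.1% of all genes had one. That median was -0.0032 without library F, -0.038 without E and -0.15 without G. The groups did not overlap for 0 of the 9 members, beside 3.89% of all genes.

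**Figure D2:**
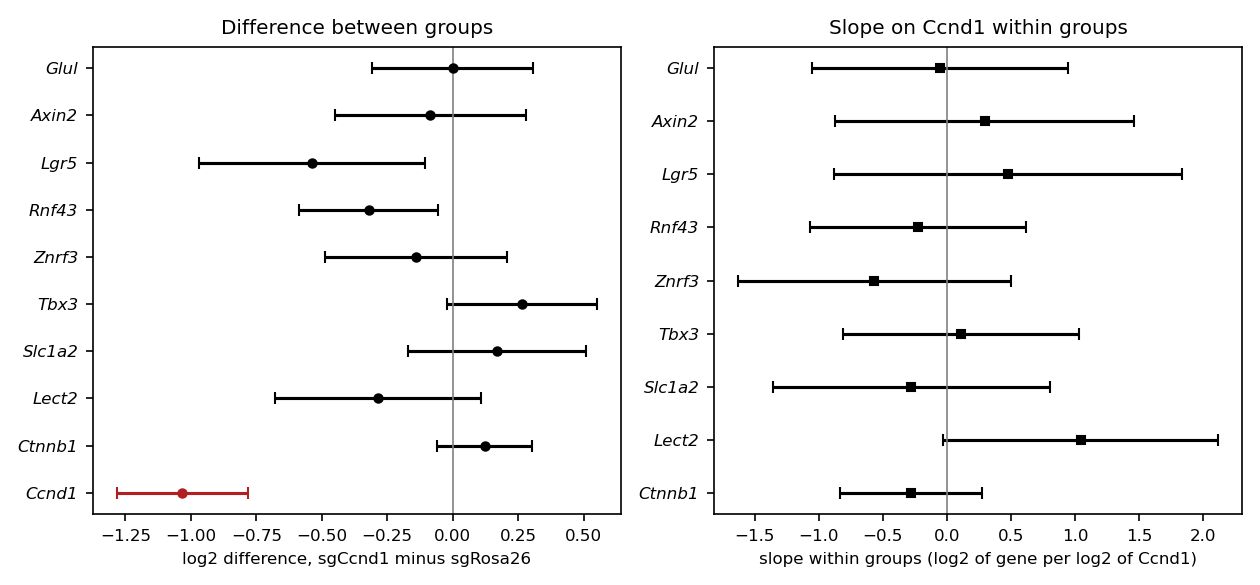
Left, log2 difference between groups (sgCcnd1 minus sgRosa26) of the 9 members and Ccnd1; right, slope of each member on Ccnd1 within groups (log2 per log2); points are limma estimates and bars 95% confidence intervals before adjustment. The interval of Ccnd1 runs from -1.28 to -0.78, and all slope intervals include 0.

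Lgr5 and Rnf43 had the 2 smallest p-values of the members. Lgr5 encodes a receptor for R-spondins and lies at chr10:115450314-115587780 (GRCm38.p6). It had 124, 125, 107 and 121 normalized counts in control livers A to D and 77.8, 68.9, 139, 63.0 and 78.1 in livers E to I of sgCcnd1. Of the sgCcnd1 libraries, 4 were below all controls and library G was above all of them. The log2 difference was -0.54 ± 0.20 (SE; 95% interval -0.97 to -0.11; limma adjusted p = 0.358; exact permutation p = 0.0635). Without library G the groups no longer overlapped, as for 5.29% of all genes in that setting. That share is for a library fixed in advance, while G is named because it alone kept the groups overlapping. The log2 difference without G was -0.73 (limma adjusted p = 0.292). Without library H it was -0.44 (limma adjusted p = 0.612). Lgr5 rests on 55 to 143 reads per library, fewer than any other member in 8 of 9 libraries.

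Rnf43 and Znrf3 encode paired ubiquitin ligases that remove Frizzled receptors from the cell surface and that R-spondins hold in check through LGR receptors. Rnf43 (chr11:87663087-87735539) had 566, 420, 417 and 419 normalized counts in control livers A to D and 383, 306, 335, 366 and 426 in livers E to I of sgCcnd1. Library A was high among the controls, and library I of sgCcnd1 lay just above the other 3 controls. The log2 difference was -0.32 ± 0.12 (SE; 95% interval -0.59 to -0.06; limma adjusted p = 0.372; exact permutation p = 0.0397). Without library A it was -0.21 (limma adjusted p = 0.447), and without library I, where the groups did not overlap (4.97% of all genes in that setting), -0.38. That share is for a library fixed in advance, while I is named because it alone kept the groups overlapping.

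Znrf3 (chr11:5276329-5444847) had 225, 192, 229 and 227 normalized counts in control livers A to D and 146, 167, 274, 205 and 219 in livers E to I of sgCcnd1. The sgCcnd1 values reached below and above the whole control range, from library E to library G. The log2 difference was -0.14 ± 0.16 (SE; limma adjusted p = 0.772), with a 95% interval of -0.49 to 0.21. It was -0.032 without library E, -0.080 without F and -0.26 without G. A difference between the 2 genes was not tested.

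Axin2, the scaffold of the β-catenin destruction complex that the pathway itself induces, lies at chr11:108917828-108950783. It had 144, 189, 125 and 109 normalized counts in control livers A to D and 142, 104, 155, 142 and 118 in livers E to I of sgCcnd1, and the groups overlapped over most of their range. Between groups the log2 difference was -0.09 (95% interval -0.45 to 0.28; limma adjusted p = 0.888). It turned to 0.06 without library B, the highest of the 9. As folds, the interval spans 0.732 to 1.21 times the control level.

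Ctnnb1 (chr9:120933400-120960507) encodes β-catenin, whose activity is set mainly by protein stability rather than by transcript level. Its normalized counts ran 3312, 2879, 3138 and 2644 in control livers A to D and 3338, 3112, 3345, 3103 and 3335 in livers E to I of sgCcnd1. All values lay within 1.26-fold of each other, the narrowest range of the 9 members. The log2 difference was 0.12 (95% interval -0.06 to 0.30; limma adjusted p = 0.612). It was 0.064 without library D and 0.053 after quantile normalization.

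Among the zonated output genes, Glul, which encodes glutamine synthetase and marks the hepatocytes next to the central vein, was nearly equal in the groups. Glul (chr1:153899929-153909723) had 12337, 9403, 11487 and 9140 normalized counts in control livers A to D and 11660, 9445, 13591, 9818 and 8693 in livers E to I of sgCcnd1. The mean was 10592 ± 1568 in sgRosa26 (SD, n = 4) and 10641 ± 1978 in sgCcnd1 (SD, n = 5). The 95% interval of the log2 difference ran from -0.31 to 0.31, or 0.808 to 1.24 times the control level (limma adjusted p = 0.999). The sign of the estimate changed with the tool and with the library left out.

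Slc1a2 (chr2:102658239-102790784) encodes a glutamate transporter of pericentral hepatocytes, which supplies the substrate of glutamine synthetase. It had 1844, 1534, 1915 and 1527 normalized counts in control livers A to D and 1791, 1568, 2736, 2121 and 1553 in livers E to I of sgCcnd1. Libraries G and H exceeded all controls while the other 3 lay within their range. Its log2 difference was 0.17 (95% interval -0.17 to 0.51; limma adjusted p = 0.710), and 0.040 without library G.

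Tbx3 (chr5:119670534-119684724), a T-box transcription factor known as a β-catenin target in liver, had 584, 597, 600 and 546 normalized counts in libraries A to D. In libraries E to I it had 787, 495, 796, 679 and 789. Thus 4 of 5 sgCcnd1 libraries exceeded all controls and library F lay below them. The log2 difference was 0.26 ± 0.13 (SE; 95% interval -0.02 to 0.55; limma adjusted p = 0.489; exact permutation p = 0.103). Without library F the groups did not overlap, as for 6.11% of all genes in that setting. That share is for a library fixed in advance, while F is named because it alone kept the groups overlapping. The log2 difference without F was 0.39 (limma adjusted p = 0.304). The spread also differed, with a coefficient of variation of 4.27% in sgRosa26 and 18.2% in sgCcnd1, a difference that was not tested.

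Lect2 (chr13:56529734-56548559) encodes a secreted hepatocyte protein known as a β-catenin target. It had 917, 1298, 787 and 1458 normalized counts in control livers A to D and 768, 1089, 976, 947 and 711 in livers E to I of sgCcnd1. The controls fell into a lower pair, A and C, and a higher pair, B and D, and 2 of the 5 sgCcnd1 libraries were below all of them. The log2 difference was -0.29 ± 0.18 (SE; 95% interval -0.68 to 0.11; limma adjusted p = 0.581). Leaving out a library moved it between -0.44 (without C) and -0.14 (without D).

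Library G of sgCcnd1 was the highest of all 9 libraries for 6 of 9 members (Glul, Lgr5, Znrf3, Tbx3, Slc1a2 and Ctnnb1), where 10.6% of all genes tested had their highest value in G. For Tbx3 and Ctnnb1 this was a near tie, at 796 in G against 789 in I and at 3345 against 3338 in E. The other 20 pericentral genes of a wider list were highest in G in 4 cases, and 20 periportal genes in 5 cases. Of the tested ligands, secretion factors and R-spondins 4 of 10 were highest in G, as were 0 of 7 antagonists and feedback genes and 0 of 11 TCF/LEF and co-activator genes. Of the ligands of central vein endothelium, Wnt2 was at 37.2 normalized counts in G and at 17.5 to 30.0 in the other 8 libraries, and Wnt9b at 19.6 in G and 19.7 in C. Rspo3 was at 83.2 in G, below C and I, and Wnt4 at 41.1 in G, below all controls. Library F, in turn, was the lowest of 9 for 3 members. These counts describe the libraries, and no cause was tested.

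**Figure D3:**
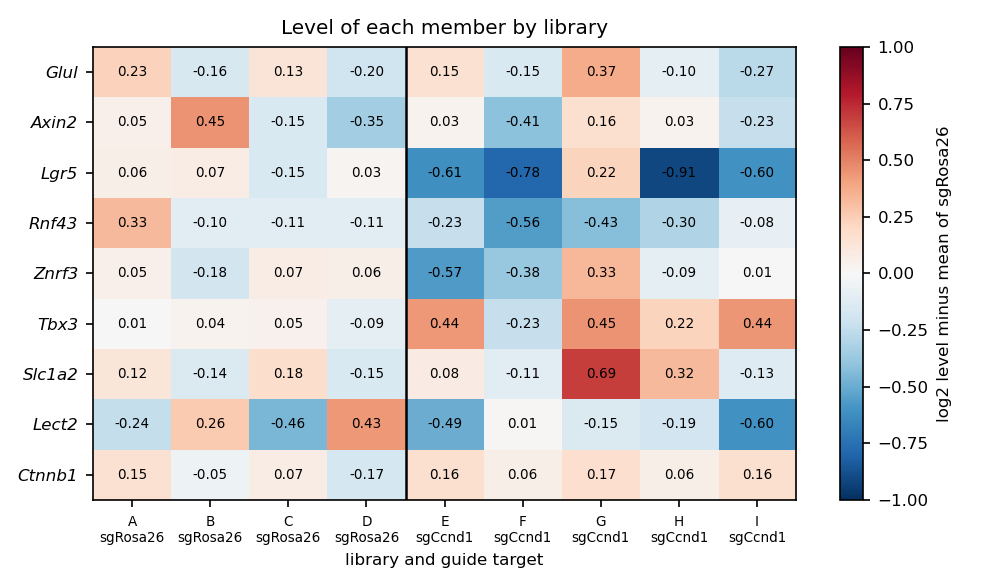
Log2 level of each member in each library minus the mean of the 4 sgRosa26 libraries (colour and printed value); the vertical line separates the groups. Lgr5 runs from -0.91 to -0.60 in E, F, H and I and is 0.22 in G. Rnf43 is below 0 in all 5 sgCcnd1 libraries and also in control libraries B, C and D (-0.10, -0.11 and -0.11).

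Whether the members vary with Ccnd1 within the groups was then asked with a slope: the log2 change of a gene per log2 change of Ccnd1, each centred on its group mean, fitted in limma with group in the model. Ccnd1 spanned 1.39-fold in sgRosa26 and 1.32-fold in sgCcnd1, which limits the precision of any slope. In limma, 0 of 9 members had an adjusted p under 0.05, as did 0% of the 12992 genes tested. At an unadjusted p under 0.05 there were 0 of 9 members and 4.13% of all genes. The count models called 0 of 9 members as well, with 0% of all genes in edgeR and 0.0077% in DESeq2.

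The slope was largest for Lect2, at 1.04 with a 95% interval of -0.03 to 2.12 (limma adjusted p = 0.874). For the other 8 members it lay between -0.57 (Znrf3) and 0.48 (Lgr5). Without library E these were 0.013 and 0.86, and the slope of Lgr5 was 0.32 without library H. The interval was -1.06 to 0.95 for Glul and -0.87 to 1.46 for Axin2. A proportional change with Ccnd1, a slope of 1, lay just outside the first interval and inside the second. That of Glul is for 1 slope common to both groups, where the separate slopes were -0.89 in sgRosa26 and 1.13 in sgCcnd1. It therefore does not exclude a slope of 1 within a single group. For Ctnnb1 the interval was -0.84 to 0.28. The slope of Lect2 was 1.98 without library E (limma adjusted p = 0.195) and 0.62 without library C.

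The 2 groups differed in pattern for Lect2 and Glul at an unadjusted p only. Ordered by Ccnd1 from low to high, the controls are C, A, B and D, and Lect2 followed that order with 787, 917, 1298 and 1458 normalized counts. Glul ran the other way in part, with 11487, 12337, 9403 and 9140. The sgCcnd1 libraries in that order are I, H, F, G and E, with Lect2 at 711, 947, 1089, 976 and 768 and Glul at 8693, 9818, 9445, 13591 and 11660. The slope of Lect2 was 1.94 ± 0.50 (SE) in sgRosa26 and -0.24 ± 0.60 in sgCcnd1, a difference of -2.18 (limma adjusted p = 0.663). The slope of Glul was -0.89 ± 0.47 and 1.13 ± 0.56, a difference of 2.02 (limma adjusted p = 0.664). Such a difference had an unadjusted p under 0.05 for 6.87% of all genes and, in limma, an adjusted p under 0.05 for none of them. Both differences moved with library E: without it the Lect2 difference was 0.34 and the Glul difference 4.27.

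The split of the controls into A and C against B and D was also seen outside the members. Gt(ROSA)26Sor, the transcript of the control locus, was at 78.7 and 100 normalized counts in A and C and at 138 and 139 in B and D. Its slope in sgRosa26 was 1.45 ± 0.57. Ccnd1 itself was at 684 and 625 in A and C and at 800 and 867 in B and D. A slope on Ccnd1 in sgRosa26, including those of Lect2 and Glul, therefore cannot be told apart from a difference between these pairs. Genes of the lists split in either direction, such as Fgb (72879 and 61331 against 34468 and 44250) and Cyp2e1 (65292 and 62977 against 74545 and 86405). What separates these pairs was not tested.

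**Figure D4:**
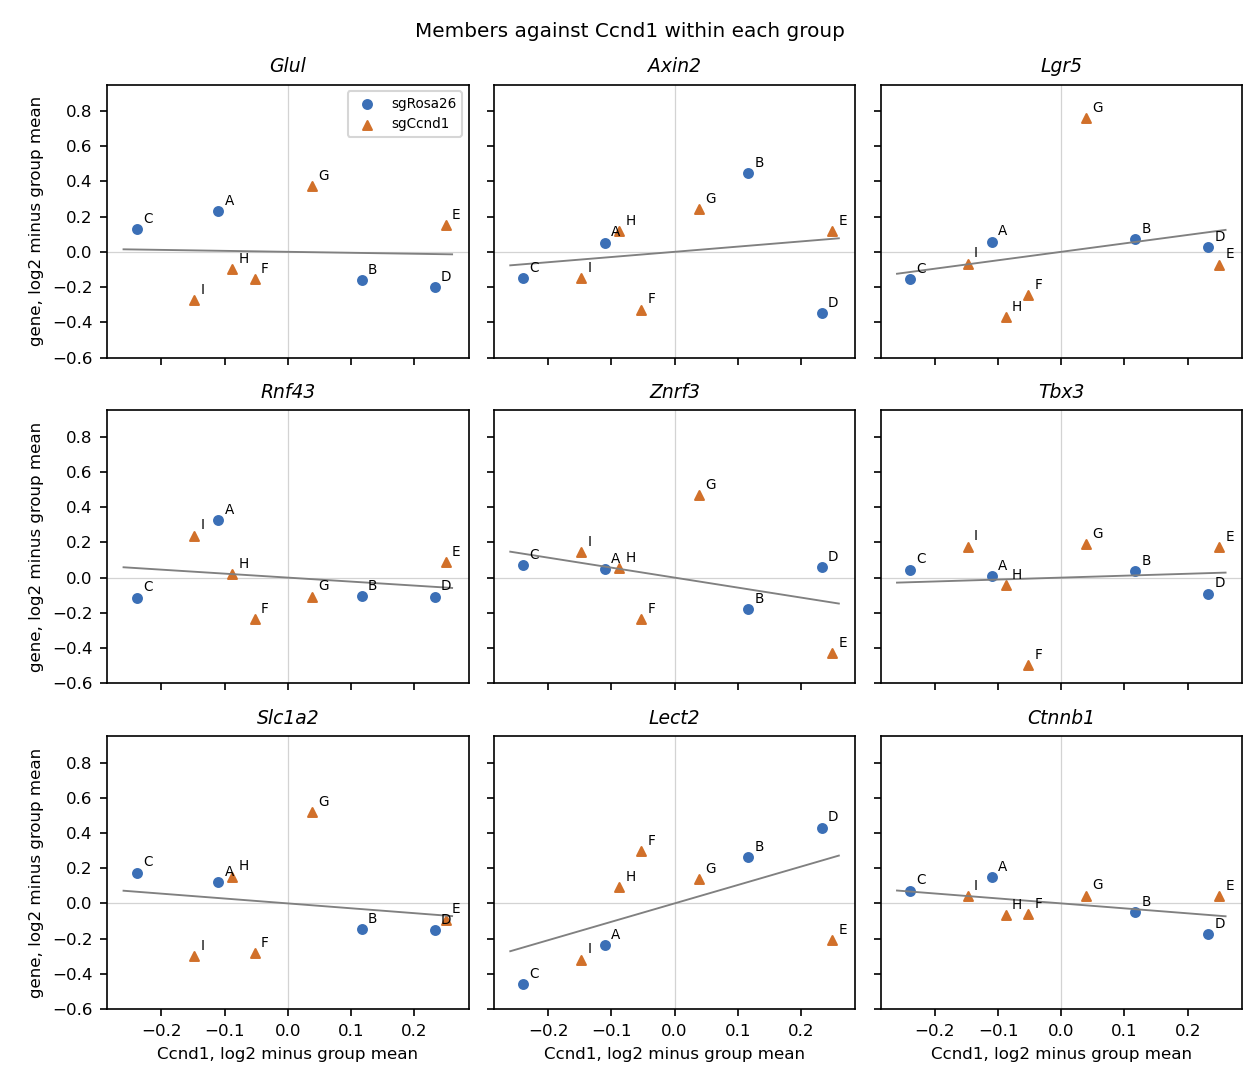
Log2 level of each member against log2 level of Ccnd1, both minus their group mean, for sgRosa26 (circles) and sgCcnd1 (triangles); grey lines have the fitted common slope. Lect2 has the steepest line, 1.04, with library E far below it, and the line of Glul is nearly flat at -0.05.

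Genes of the rest of the pathway were followed from lists, and none passed in limma over all genes. Of 25 Wnt ligands, secretion factors and R-spondins, 10 passed the filter on low values and 6 were listed at 0 in all libraries. Rspo3, the R-spondin of central vein endothelium, was at 85.6 ± 20.3 normalized counts in sgRosa26 (SD, n = 4) and 75.4 ± 15.2 in sgCcnd1 (SD, n = 5). Wls, needed for Wnt secretion, had the smallest p of this list (log2 difference -0.29, limma adjusted p = 0.569), followed by Porcn, the Wnt acyltransferase (0.22, 0.576), and Wnt4 (-0.36, 0.613). Without library B these were -0.17 for Wls and -0.17 for Wnt4, Wls was -0.17 without H as well, and Wnt4 was -0.54 without C. The endothelial markers, the cells that supply these ligands, summed to 3667 to 5419 normalized counts in sgRosa26 and 3769 to 5522 in sgCcnd1, and 0 of 13 had an unadjusted p under 0.05, beside 11% of all genes. Of these 13 markers 10 had estimates below 0, with a median of -0.16.

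Of 17 Wnt receptors 11 were tested. The co-receptor Lrp6 had a log2 difference of 0.29 (limma adjusted p = 0.421) and Lrp5 one of -0.19 (limma adjusted p = 0.544). Lgr4, the R-spondin receptor related to Lgr5, was at 999 ± 140 normalized counts in sgRosa26 (SD, n = 4) and 1149 ± 166 in sgCcnd1 (SD, n = 5), a log2 difference of 0.20 (limma adjusted p = 0.560) where that of Lgr5 was -0.54. Of 14 genes of the destruction complex and Dishevelled 13 were tested, with a median log2 difference of 0.05. Amer1, a membrane anchor of the complex, was at 0.31 (limma adjusted p = 0.422), Dvl2 at 0.24 (0.507 adjusted) and the kinase Csnk1a1 at 0.21 (0.537 adjusted), the last 0.33 without library A and 0.12 without D.

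The TCF/LEF factors held the smallest p-values of the pathway lists. Tcf7l2, the main TCF of liver, had 440, 389, 453 and 416 normalized counts in control livers A to D and 287, 333, 331, 280 and 375 in livers E to I of sgCcnd1. The groups did not overlap, as for 3.89% of all genes, and the log2 difference was -0.41 ± 0.10 (SE; limma adjusted p = 0.253; DESeq2 adjusted p = 0.0395, and 0.218 without library H). Tcf7, which T cells also express, had 135, 105, 102 and 98.1 normalized counts in control livers A to D and 94.5, 67.1, 87.1, 64.0 and 49.7 in livers E to I of sgCcnd1. It did not overlap between groups either, with a log2 difference of -0.62 (limma adjusted p = 0.291; DESeq2 adjusted p = 0.146). No lymphocyte marker passed. Of the 8 tested 8 had estimates below 0, beside 47.1% of all genes, and 3 had an unadjusted p under 0.05, all lower, beside 5.74%. Their median log2 difference was -0.52, and the 9 listed summed to 257 to 582 normalized counts in sgRosa26 and 179 to 487 in sgCcnd1. Cd3e was at 27.1 ± 9.93 (SD, n = 4) and 10.7 ± 8.72 (SD, n = 5). Their part in the Tcf7 difference was not tested. Of other cell types, stellate cell markers had 7 of 8 estimates below 0 (median -0.20), Kupffer cell markers 4 of 7 (median -0.06) and cholangiocyte markers 3 of 5 tested (median -0.31). At an unadjusted p under 0.05, 2 of the 8 stellate markers (Pdgfrb and Ngfr), 0 of the 7 Kupffer cell markers and 1 of the 5 cholangiocyte markers (Sox9) were lower, beside 5.74% of all genes. Summed, stellate markers spanned 1969 to 2623 normalized counts in sgRosa26 and 1683 to 2387 in sgCcnd1, and cholangiocyte markers 932 to 1912 and 753 to 1172. Over the 11 TCF/LEF and co-activator genes tested, 2 had an unadjusted p under 0.05, both lower, where 5.74% of all genes did, and the median log2 difference was -0.09. Bcl9, a co-activator, was at -0.21 (limma adjusted p = 0.591).

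Of the secreted antagonists and feedback genes 7 of 17 were tested, and 6 of the 7 had estimates below 0, beside 47.1% of all genes. The median of the 7 was -0.22. Notum, a secreted enzyme that inactivates Wnt ligands, had 889, 659, 741 and 821 normalized counts in control livers A to D and 643, 659, 705, 528 and 548 in livers E to I of sgCcnd1. Its log2 difference was -0.33 ± 0.11 (SE; limma adjusted p = 0.334), and only library G of sgCcnd1 lay above the lowest control, library B. Library F, at 658.9, was nearly level with B, at 659.2. Tnfrsf19 was at -0.22 (limma adjusted p = 0.556) and Nkd1, a Dishevelled inhibitor, at -0.22 (limma adjusted p = 0.562). Tnfrsf19 was at -0.13 without library H. None of these estimates passed.

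**Figure D5:**
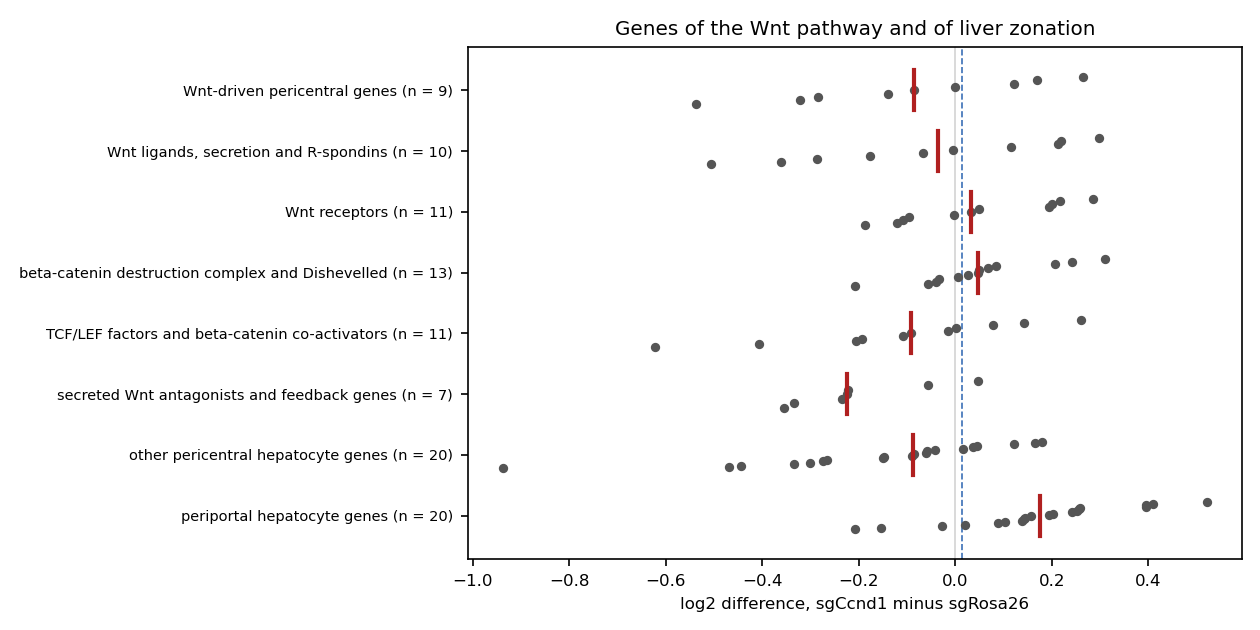
Log2 difference between groups of each tested gene of the pathway and zonation lists (grey points), with each list's median (red bar) and the median of all genes tested (dashed line, 0.01). The median is -0.09 for the 9 members, -0.22 for the antagonists and feedback genes and 0.18 for the periportal genes.

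Other pericentral hepatocyte genes, 20 of 20 tested, had a median log2 difference of -0.09 with 14 estimates below 0, where 47.1% of all genes had one. At an unadjusted limma p under 0.05, 1 of the 20 was lower and 0 were higher, beside 5.74% and 5.22% of all genes. Slc1a4, a neutral amino acid transporter, did not overlap between groups, which held for 3.89% of all genes. It had 118, 138, 92.9 and 125 normalized counts in control livers A to D and 85.4, 68.9, 54.8, 72.0 and 35.5 in livers E to I of sgCcnd1. Its log2 difference was -0.94 ± 0.22 (SE; limma adjusted p = 0.250; DESeq2 adjusted p = 0.0164, and 0.0433 without library H), and its slope on Ccnd1 within groups was 1.39 (limma adjusted p = 0.874). Rhbg, an ammonium transporter, was at -0.47 (limma adjusted p = 0.454) and Gstm3 at -0.44 (limma adjusted p = 0.457). The Gstm3 value was -0.20 without library B and -0.63 without A. The cytochromes Cyp2e1 and Cyp1a2, abundant in this zone, had log2 differences of 0.18 (limma adjusted p = 0.660) and -0.06 (limma adjusted p = 0.863), the latter 0.011 without library I. After quantile normalization they were 0.080 and -0.18, and Cyp2e1 was 0.12 without library C and 0.27 without D.

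Periportal genes, the opposite end of the lobule, had a median log2 difference of 0.18. Of 20 estimates 17 were above 0, as were 6877 of 12993 over all genes. At an unadjusted limma p under 0.05 there were 4 higher and 0 lower, where 5.22% of all genes were higher. Sds, serine dehydratase, had 2500, 1878, 2322 and 1879 normalized counts in control livers A to D and 2245, 3166, 3203, 3350 and 3483 in livers E to I of sgCcnd1, with library E inside the control range. Its log2 difference was 0.52 (limma adjusted p = 0.253; DESeq2 adjusted p = 0.0419, and 0.194 without library H). Sdsl, its paralogue, was at 0.41 (limma adjusted p = 0.279) and Asl, of the urea cycle, at 0.20 (limma adjusted p = 0.384), both without overlap between groups, as for 3.89% of all genes. After quantile normalization Asl was at 0.10. The slope of Sds on Ccnd1 within groups was -1.15 (limma adjusted p = 0.874). Of the 20 periportal slopes 16 were negative, as were 6395 of 12992 over all genes, and 3 were negative at an unadjusted p under 0.05, beside 285 of 12992. Summed, the periportal genes reached 241253 and 232794 normalized counts in control libraries A and C, inside the sgCcnd1 range of 218394 to 272082. In control libraries B and D the sums were 179555 and 187845, below that range. A difference between the pericentral and periportal lists was not tested.

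By profile over the 9 libraries (root mean square difference of log2 levels, each centred on its mean), the nearest genes were found among 10410 whose mean reached 50 normalized counts, for 3 members. For Glul these were Atm (0.094), Reps1 (0.099) and Cbx7 (0.11), where the median gene was at 0.27. For Axin2 they were Sh3tc1 (0.13), Jag1 (0.15) and Rpl17 (0.16), with a median of 0.32. For Lgr5 they were Xaf1 (0.17), Setd4 (0.19) and Mx2 (0.21), with a median of 0.45. Xaf1 was at 171 normalized counts in library G and at 85.0 to 116 in the other sgCcnd1 libraries, and Lgr5 was also highest in G within that group. The Xaf1 value in G lay within its control range of 150 to 197, while that of Lgr5 lay above its controls.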

How the data were processed

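Libraries were made by poly(A) capture from liver pieces of 9 mice, per the labels' protocols. Per the submitters' processing notes, Trim Galore 0.6.7, HISAT2 2.2.1, featureCounts 2.0.3 and DESeq2 2.11.40.8 were used with mm10 and GRCm38. Annotation and use of strand are not given in the sources used here, so reads of overlapping or antisense genes could have been shared. The deposited signal is normalized counts: the authors divided read counts by 1 size factor per library. In each library 100% of values were whole multiples of the value of 1 read within 0.01, so reads were recovered. In library H that value is so near 1 that low counts alone do not show it, and count models were also run without it.

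The test was limma 3.58.1 in R 4.3.3 (eBayes with an intensity trend, two-sided) on log2(normalized count + 1) for 12993 genes with a mean of at least 10, adjusted by Benjamini-Hochberg over all genes at 0.05. Fold changes on this scale understate low genes. Slopes used log2 Ccnd1 centred within groups as a covariate, without Ccnd1 among the genes. Alternatives were pseudocounts 0.1 and 10, no minimum or one of 100, quantile normalization, rescaling to the 75th percentile, robust eBayes, edgeR 4.0.16, DESeq2 1.42.0 and leaving out each library. On simulated counts for the group comparison (12907 genes passing), limma recovered 81% of 100 genes changed 2-fold and 54% of 100 changed 1.5-fold, with 13 unchanged genes called. For slopes (12913 genes) it recovered 47% of 200 genes with a slope of 2 or -2, with 7 unchanged genes called. In the livers, 1 of 12993 genes passed between groups, Ccnd1, at a log2 difference of -1.03 (limma adjusted p = 0.0116). Slc1a4, at -0.94, did not (limma adjusted p = 0.250). Whether the recovered shares hold for these livers was not tested.

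Members and lists were chosen with earlier results of these data known. Genes named beside the members were the 3 of each pathway or zonation list with the smallest p and the 3 nearest profiles of Glul, Axin2 and Lgr5. Wnt2, Wnt9b, Rspo3, Cyp2e1, Cyp1a2, Hnf4a, Ddx3y and the marker genes were added after their values were seen. Depth covers counting error only. Figures used matplotlib 3.10.9.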

Additional observations from a re-analysis of the deposited data

Results flagged for a closer look

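Each of 50 named genes was searched in both groups for 1 library standing apart, 100 searches in all. A library stood apart when its gap to the nearest one was a large share of the group's range (Dixon's ratio). This was met 8 times, and chance gives about 5. Members account for 3 of them, from 18 of the 100 searches. Lgr5 was at 139 normalized counts in library G of sgCcnd1 against 63.0 to 78.1 in the other 4. Rnf43 was at 566 in control library A against 417 to 420 in the other controls, and Znrf3 at 192 in control library B against 225 to 229. Among the other genes, Wls was at 124 normalized counts in control library B against 87.4 to 91.0. Library E of sgCcnd1 gave the remaining 4: Sds at 2245 against 3166 to 3483 in F to I, Vsig4 (a Kupffer cell marker) at 334 against 211 to 237, Cd8a at 40.4 against 3.00 to 8.95, and Nkg7 at 39.6 against 7.997 to 13.7. Library E also had the highest Ccnd1 of its group, at 428 normalized counts.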

How the results depend on the processing

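No paired analysis was possible because the number in each column name is held by no sample label and gives no replicate. No member passed at an adjusted p under 0.05 in any of the alternatives, between groups or for a slope. Members lower at an unadjusted p under 0.05 numbered 2, but 1 without A, 3 without C, 1 (and 1 higher) without F, and 1 in edgeR or DESeq2 without H. Ccnd1 kept its direction in all of them, with log2 differences of -1.11 to -0.96 when each library was left out, and it missed the threshold in limma without library B, D, F, H or I and in edgeR without library H (-1.02, adjusted p = 0.0559; chosen after seeing the data). Genes lower in sgCcnd1 numbered 1 in limma, 2 after quantile normalization, 70 in DESeq2, 0 in edgeR without library H, 27 in DESeq2 without library H, and 0 to 2 when each library was left out (2 without E or G). Genes higher numbered 0, 34 in DESeq2 and 11 in DESeq2 without library H. Genes called for a slope on Ccnd1 numbered 0, 1 in DESeq2, and 0 to 1 with a library left out (1 without D). Genes called for a difference in slope numbered 0, 16 in DESeq2, 15 in DESeq2 without library H, and 0 to 2 with a library left out (2 without C).

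Some signs turned. The Glul difference was 0.00032 in DESeq2, 0.024 in edgeR and 0.029 in DESeq2 without library H, and -0.093 to 0.077 with a library left out. Its slope was 0.051 after quantile normalization and -0.39 to 0.31 with a library left out. For Axin2 the difference without library B was 0.063 (range -0.20 to 0.063) and the slope -0.0030 (to 1.10 without D). The slope of Tbx3 was -0.18 without E, -0.030 without F and up to 0.33 without D, and that of Znrf3 0.013 without E and -0.94 without D. The difference in slope of Lect2 was 0.34 without E and -3.13 without I, and that of Glul 4.27 without E. With a library left out, the difference of Lgr4 ran from 0.13 (without G) to 0.29 (without C) and that of Rspo3 from -0.27 (without I) to -0.025 (without C). The slope of Rnf43 ran from -0.57 (without C) to -0.022 (without A), that of Slc1a2 from -0.58 (without I) to -0.056 (without C) and that of Ctnnb1 from -0.50 (without E) to -0.073 (without D). The causes were not tested. In DESeq2 without library H, chosen after seeing the data, Tcf7l2 and Sds no longer passed and Slc1a4 did. Of the named genes of the pathway and zonation lists, all run after seeing the data, Cyp1a2 was 0.011 without I (otherwise down to -0.10 with a library left out) and Wnt2 -0.048 without G (up to 0.27 without C); the rest kept their sign. Lgr5 had the fewest reads of the members in every library but D, where Axin2 had fewer.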
